A study of Mus musculus with 12 samples.

Results

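The genes described here are 7 mRNA decay factors of inflammation: Zfp36, Zfp36l1, Zfp36l2, Zc3h12a, Zc3h12c, Rc3h1 and Rc3h2. They were chosen by name, and all 7 were found among the 43131 genes of the count table. Each gene is represented by its most counted transcript, and levels are in CPM, counts scaled to the library total with TMM factors. The RNA came from bone marrow-derived macrophages (BMDMs) of C57BL/6 mice, differentiated with M-CSF at 50 ng/mL for 7 days. All mice carried loxP-flanked tlr4 (tlr4f/f). The tlr4f/f-lysM-cre animals also express Cre under the lysozyme M promoter, which acts in myeloid cells. BMDMs of each genotype were left without LPS (LPS-) or given LPS at 1 µg/mL for 6 h (LPS+), with 3 libraries in each of the 4 groups and 12 in all. The age of the mice that gave the marrow, and whether the libraries came from separate mice or cultures, are not given in the sources used here, so p-values measure only the spread between these libraries, which may be technical.

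Inflammatory mRNAs are short-lived because proteins bind their 3′ UTRs and bring in the enzymes that destroy them. Tristetraprolin (TTP, gene Zfp36) and its paralogs ZFP36L1 (Zfp36l1) and ZFP36L2 (Zfp36l2) bind AU-rich elements with a pair of zinc fingers and recruit the CCR4-NOT complex, which removes the poly(A) tail. Regnase-1 (Zc3h12a) and Regnase-3 (Zc3h12c) are endoribonucleases that cut target mRNAs, and Roquin-1 (Rc3h1) and Roquin-2 (Rc3h2) bind stem-loops in the 3′ UTR. In macrophages several of them are themselves transcribed in response to LPS, so that the signal which makes cytokine mRNAs also makes the factors that remove them.

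Groups are named by the headings of the count columns, and the heading LPS- tlr4f/f-lysM-cre may have been exchanged with LPS+ tlr4f/f. Under the heading LPS- tlr4f/f the level of Tlr4, the targeted gene, was 76.7, 150 and 119 CPM, and under LPS- tlr4f/f-lysM-cre 116, 93.2 and 114 CPM. Under LPS+ tlr4f/f it was 31.2, 28.2 and 24.7 CPM, and under LPS+ tlr4f/f-lysM-cre 27.6, 24.5 and 24.9 CPM. Lyz2, the gene whose locus carries Cre, had 383956 to 1244818 counts in a library headed LPS- tlr4f/f and 221787 to 303431 in one headed LPS- tlr4f/f-lysM-cre, against 494 to 623 in one headed LPS+ tlr4f/f and 2127 to 3272 in one headed LPS+ tlr4f/f-lysM-cre. Il1b, a cytokine gene induced by LPS, had 4 to 405 counts in a library headed LPS- tlr4f/f and 128 to 195 in one headed LPS+ tlr4f/f, against 52432 to 306385 in one headed LPS- tlr4f/f-lysM-cre and 97411 to 113136 in one headed LPS+ tlr4f/f-lysM-cre. With these headings exchanged, both groups low in Tlr4 and Lyz2 would be lysM-cre and both groups high in Il1b would be LPS+. Each comparison is therefore given in both readings: as headed, and with the pair exchanged. The group headed LPS- tlr4f/f and the one headed LPS+ tlr4f/f-lysM-cre keep their names in both.

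The libraries held 33577087 to 56445268 counts over genes, and no library had fewer than 263 counts for any of the 7 factors. Of 7 macrophage markers none was at or under 3 counts in all libraries of a group; without Lyz2 their summed level was 4920 to 6290 CPM in LPS- tlr4f/f, 7780 to 9050 in LPS- tlr4f/f-lysM-cre, 3960 to 4170 in LPS+ tlr4f/f and 5690 to 5880 in LPS+ tlr4f/f-lysM-cre. Ly6g, which defines neutrophils, was at or under 3 counts throughout. Together 6 neutrophil markers, Ly6g included, had 0.535 to 12.2 CPM in LPS- tlr4f/f and 12.8 to 160 in LPS- tlr4f/f-lysM-cre. They had 4.1 to 6.15 CPM in LPS+ tlr4f/f and 5.1 to 7.24 in LPS+ tlr4f/f-lysM-cre. Lymphocyte markers, also 6, summed to at most 1.16 CPM. The sum of 4 dendritic cell markers, of which Flt3 was at or under 3 counts throughout, was 0.203 to 0.769 CPM in LPS- tlr4f/f, 4.66 to 13 in LPS- tlr4f/f-lysM-cre, 0.367 to 0.735 in LPS+ tlr4f/f and 2.89 to 3.68 in LPS+ tlr4f/f-lysM-cre. The sum of 6 fibroblast and stroma markers ran from 9.28 to 663 CPM in LPS- tlr4f/f, 182 to 1440 in LPS- tlr4f/f-lysM-cre, 20.7 to 25.2 in LPS+ tlr4f/f and 45 to 56.9 in LPS+ tlr4f/f-lysM-cre. In bulk RNA, fewer cells of a type and less RNA per cell cannot be told apart.

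The AU-rich motif that TTP proteins bind is present in the 3′ UTRs of the TTP family's own mRNAs. The heptamer TATTTAT was counted on the sense strand, overlaps included, in 3′ UTRs of GENCODE M21 (GRCm38). It was found 3 times in the 774 bases of Zfp36, 3 times in the 1835 bases of Zfp36l1 and 3 times in the 1822 bases of Zfp36l2. Of 19274 genes, 25.5% had at least 1 heptamer in their longest 3′ UTR. Among genes with a 3′ UTR of 0.8 to 1.2 times the length, 1.25% had at least as many as Zfp36, 4% as Zfp36l1 and 3.99% as Zfp36l2. The sites of Zfp36 and Zfp36l2 are shown because these paralogs carry the opposite changes described below. They are written 5′ to 3′ on the minus strand with the heptamer in capitals. The Zfp36 sites lie at chr7:28376967-28376993, chr7:28376952-28376978 and chr7:28376927-28376953, and the first and second of them overlap. The Zfp36l2 sites lie at chr17:84184915-84184941, chr17:84184867-84184893 and chr17:84184681-84184707.
Zfp36 site 1: gtgggcccttTATTTATgacgacttta
Zfp36 site 2: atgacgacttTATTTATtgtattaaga
Zfp36 site 3: gattttatagTATTTATatatattggg
Zfp36l2 site 1: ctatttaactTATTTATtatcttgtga
Zfp36l2 site 2: gtccatactgTATTTATcgagtatgat
Zfp36l2 site 3: ttgtatgtaaTATTTATttcattaatt

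Zc3h12a had no heptamer in 856 bases. Zc3h12c had 2 in 3421 bases, Rc3h1 2 in 7181 bases and Rc3h2 3 in 2095 bases. Among genes with a 3′ UTR of 0.8 to 1.2 times the length, 23.9% had at least as many as Zc3h12c, 46.3% as Rc3h1 and 4.83% as Rc3h2. The 3′ UTR of Zc3h12c was taken from a transcript other than the one whose counts are used, which could not be matched to that annotation. A match is a description of the letters and not a bound site.

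Promoters of 6 of the 7 genes were read from RefSeq (GRCm38.p6), from 250 bases before to 50 bases after the start site, on both strands. The 6 motifs searched were the NF-kB consensus, AP-1 (TGANTCA), CRE (TGACGTCA), EGR (GCGNGGGCG), the SRF CArG box and ISRE. Zfp36 held an EGR match from -105 to -97 and an SRF CArG box from -58 to -49, counted from the start site at 0. These motifs occur in 5.55% and 1.63% of 32851 promoters. Zc3h12c held an NF-kB match from -236 to -227, on the opposite strand, at the more upstream of its start sites (8.46% of promoters). Zfp36l1 and Rc3h1 each held an AP-1 match, from -129 to -123 and from -133 to -127 (7.81% of promoters). CRE (1.79%) and ISRE (3.44%) were found in none of the 6 genes, and Zc3h12a and Rc3h2 held none of the motifs. The stretches with the EGR, CArG and NF-kB matches are shown because there were 3 comparisons below in which both Zfp36 and Zc3h12c were DEGs. They are written for the minus strand with the matches in capitals, at chr7:28379259-28379358 for Zfp36 and chr9:52168557-52168656 for Zc3h12c.
Zfp36 promoter: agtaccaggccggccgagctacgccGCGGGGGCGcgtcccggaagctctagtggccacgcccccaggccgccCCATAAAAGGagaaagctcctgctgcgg
Zc3h12c promoter: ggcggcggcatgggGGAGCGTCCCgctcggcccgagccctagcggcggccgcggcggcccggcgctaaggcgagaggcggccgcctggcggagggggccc

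Zfp36 lies on chromosome 7 of GRCm38 from 28376784 to 28379228. The 3 libraries of LPS- tlr4f/f had 114, 115 and 64.4 CPM, and those of LPS+ tlr4f/f 82.6, 86.3 and 70.9 CPM. The level was 1298, 1529 and 1062 CPM in LPS- tlr4f/f-lysM-cre, and 385, 358 and 378 CPM in LPS+ tlr4f/f-lysM-cre. Both groups with lysM-cre in the heading stood above the other libraries and did not overlap with each other, while the other two groups overlapped.

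Zfp36l2 (chromosome 17, 84183924 to 84187947) ran the other way. It was at 276, 364 and 575 CPM in LPS- tlr4f/f and at 388, 389 and 364 CPM in LPS+ tlr4f/f, which overlapped. It was at 53.3, 31.5 and 35.7 CPM in LPS- tlr4f/f-lysM-cre and at 84.0, 89.0 and 110 CPM in LPS+ tlr4f/f-lysM-cre. These low groups did not overlap, and the one with the most Zfp36 had the least Zfp36l2. Over the 12 libraries the Pearson r of the log2 levels of Zfp36 and Zfp36l2 was -0.983, a description of 4 groups of libraries normalized together.

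Zfp36l1 (chromosome 12, 80107760 to 80113013) was lowest in a single group. It was at 32.3, 64.3 and 68.7 CPM in LPS- tlr4f/f, at 22.9, 14.0 and 36.1 CPM in LPS- tlr4f/f-lysM-cre and at 46.2, 43.5 and 27.8 CPM in LPS+ tlr4f/f, 3 groups that overlapped. It was at 11.1, 7.24 and 9.98 CPM in LPS+ tlr4f/f-lysM-cre, below every other library.

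**Figure D1:**
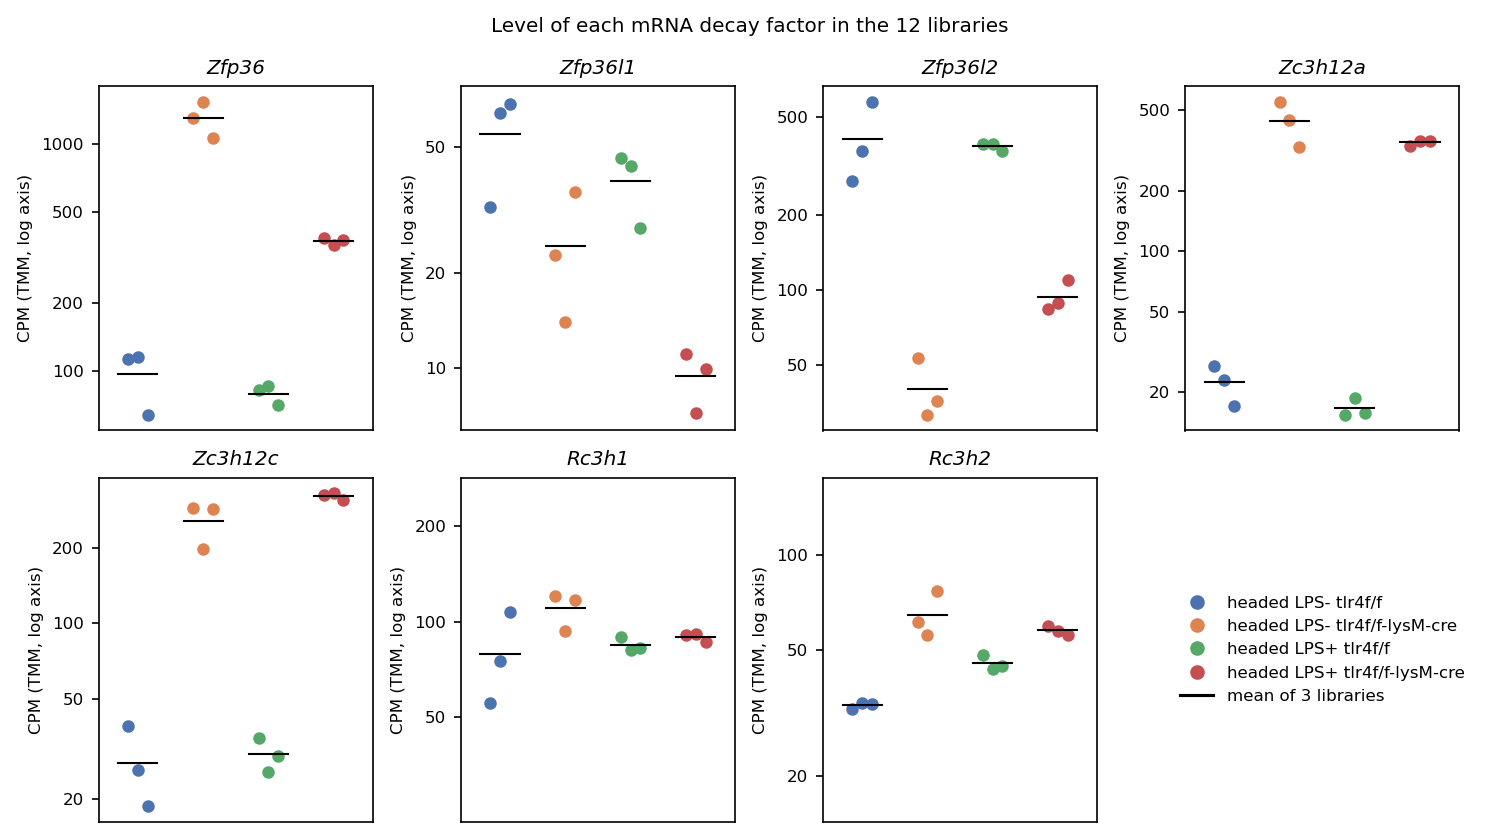
Level of each of the 7 factors (y axis, CPM after TMM scaling, log axis) in the 12 libraries; each point is 1 library, the colour is the column heading and the line is the mean of 3 libraries. Zfp36, Zc3h12a and Zc3h12c are high in the 6 libraries with lysM-cre in the heading, where Zfp36l2 is low, and the range of Rc3h1 in LPS- tlr4f/f spans 55.2 to 107 CPM.

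Per kilobase of transcript, the makeup of the TTP family changed with these levels. Zfp36 held 31.0% ± 13.1 of the family sum in LPS- tlr4f/f and 27.3% ± 0.927 in LPS+ tlr4f/f (SD, n = 3), where Zfp36l2 held 59.4% ± 12 and 64.9% ± 2.29. Zfp36 held 97.3% ± 1.04 and Zfp36l2 1.54% ± 0.493 in LPS- tlr4f/f-lysM-cre. For LPS+ tlr4f/f-lysM-cre, Zfp36 held 87.7% ± 1.35 and Zfp36l2 11% ± 1.40. The lowest share of Zfp36 in the latter groups (86.2%) was above its highest share in the former (42.0%). The family sum was 188 ± 34.4 CPM per kb in LPS- tlr4f/f, 754 ± 128 in LPS- tlr4f/f-lysM-cre, 166 ± 11.7 in LPS+ tlr4f/f and 242 ± 9.65 in LPS+ tlr4f/f-lysM-cre.

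**Figure D2:**
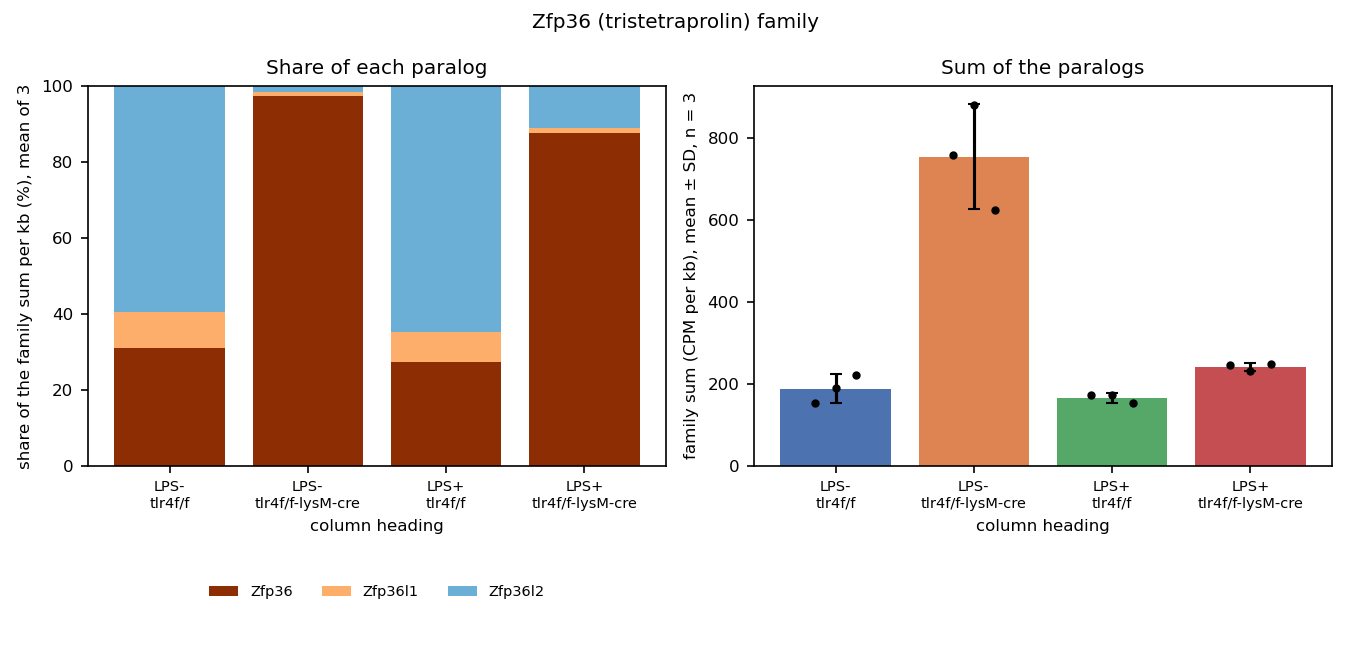
The Zfp36 family by column heading. Left, the share of each paralog in the family sum per kb of transcript (%, mean of 3 libraries); right, the family sum (CPM per kb, bar and error bar mean ± SD, n = 3, points single libraries). Zfp36 makes up 97.3% and 87.7% of the sum in the groups with lysM-cre in the heading, LPS- and LPS+, and Zfp36l2 makes up 59.4% and 64.9% in the others.

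Zc3h12a (chromosome 4, 125118414 to 125127881) was at 27.1, 23.1 and 17.1 CPM in LPS- tlr4f/f and at 15.5, 18.7 and 15.7 CPM in LPS+ tlr4f/f. It was at 552, 447 and 328 CPM in LPS- tlr4f/f-lysM-cre and at 332, 353 and 354 CPM in LPS+ tlr4f/f-lysM-cre. Each of these pairs of groups overlapped, and every library of the latter pair was above every library of the former.

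Zc3h12c (chromosome 9, 52109569 to 52168730) followed Zc3h12a, with an r of 0.976 over the 12 libraries. It was at 38.9, 26.2 and 18.7 CPM in LPS- tlr4f/f, at 35.0, 25.7 and 29.6 CPM in LPS+ tlr4f/f, at 289, 197 and 284 CPM in LPS- tlr4f/f-lysM-cre and at 326, 330 and 310 CPM in LPS+ tlr4f/f-lysM-cre. In these libraries the order of the high groups was the reverse of that of Zfp36. For Zc3h12c the group headed LPS+ tlr4f/f-lysM-cre was above the one headed LPS- tlr4f/f-lysM-cre, without overlap. The fitted log2 fold change between them was only 0.30 (SE 0.176, adjusted p = 0.246 by edgeR's quasi-likelihood test). Per kb, Zc3h12a held between 57.8% and 87.5% of the sum of this pair in every library, and the sum was 11.2 ± 2.95 CPM per kb in LPS- tlr4f/f, 187 ± 40.4 in LPS- tlr4f/f-lysM-cre, 9.39 ± 0.338 in LPS+ tlr4f/f and 161 ± 4.10 in LPS+ tlr4f/f-lysM-cre (SD, n = 3).

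The Roquin genes had a narrower range of levels than Zfp36 and Zc3h12a. Rc3h1 (chromosome 1, 160906411 to 160974976) was at 55.2, 75.3 and 107 CPM in LPS- tlr4f/f, at 120, 93.6 and 117 CPM in LPS- tlr4f/f-lysM-cre, at 89.6, 81.3 and 82.4 CPM in LPS+ tlr4f/f and at 90.5, 91.5 and 86.5 CPM in LPS+ tlr4f/f-lysM-cre. The LPS- tlr4f/f libraries overlapped with each other group. Rc3h2 (chromosome 2, 37368861 to 37424370) was at 32.7, 34.1 and 33.8 CPM in LPS- tlr4f/f, at 48.3, 43.7 and 44.7 CPM in LPS+ tlr4f/f, at 59.8, 57.4 and 56.0 CPM in LPS+ tlr4f/f-lysM-cre and at 61.4, 55.7 and 77.0 CPM in LPS- tlr4f/f-lysM-cre. Only the last pair of these groups overlapped. Per kb, Rc3h1 held between 55.2% and 72.1% of the sum of both in every library.

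A gene was a DEG if edgeR's quasi-likelihood test gave it an adjusted p below 0.01 over all genes tested and it changed by more than 2-fold, and "rose" and "fell" are used for DEGs alone. The comparison of LPS- tlr4f/f-lysM-cre with LPS- tlr4f/f gives, as headed, the effect of the genotype without LPS, and with the pair exchanged the effect of LPS in tlr4f/f BMDMs. Of the 7 factors 3 rose, against 9.25% of 14635 genes, and 1 fell, against 7.81%. Zc3h12a rose by a log2 fold change of 4.32 (SE 0.291, adjusted p = 0.000495), a 19.9-fold change. Zfp36 rose by 3.75 (SE 0.310, adjusted p = 0.000665) and Zc3h12c by 3.23 (SE 0.333, adjusted p = 0.00121). Zfp36l2 fell by 3.31 (SE 0.362, adjusted p = 0.00136), a 9.94-fold change. Rc3h2 differed by 0.97 (SE 0.169, adjusted p = 0.0062), just under the fold limit, and passed it with RLE factors or DESeq2 (1.05 with either). The values of Zfp36l1 (-1.15, adjusted p = 0.079) and Rc3h1 (0.50, adjusted p = 0.185) did not pass. The sum of stroma markers was also higher here, with overlap (182 to 1440 against 9.28 to 663 CPM). Without overlap, so were the sums of neutrophil markers (12.8 to 160 against 0.535 to 12.2 CPM) and dendritic cell markers (4.66 to 13 against 0.203 to 0.769 CPM). The same held for macrophage markers without Lyz2 (7780 to 9050 against 4920 to 6290 CPM). Of the neutrophil markers, S100a8 had a mean of 51.4 against 4.12 CPM, while Mpo was lower, at 0.726 against 1.25 CPM. The part of these sums in the result was not tested.

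The comparison of LPS+ tlr4f/f-lysM-cre with LPS+ tlr4f/f gives, as headed, the effect of the genotype with LPS, and with the pair exchanged the effect of LPS in tlr4f/f-lysM-cre BMDMs. Of the factors 3 rose, against 10.8% of 14540 genes, and 2 fell, against 10.9%. Zc3h12a rose by 4.39 (SE 0.0784, adjusted p = 8.19e-13), Zc3h12c by 3.42 (SE 0.109, adjusted p = 7.68e-09) and Zfp36 by 2.23 (SE 0.0734, adjusted p = 8.8e-11). Zfp36l1 fell by 2.04 (SE 0.265, adjusted p = 0.00121) and Zfp36l2 by 2.00 (SE 0.0967, adjusted p = 7.37e-08), both about 4-fold changes. Without replicate 3 of LPS+ tlr4f/f-lysM-cre, Zfp36l1 had an adjusted p of 0.0116. Rc3h2 differed by 0.35 (adjusted p = 0.000246), under the fold limit, and Rc3h1 by 0.09 (adjusted p = 0.184). The sums of stroma markers (45 to 56.9 against 20.7 to 25.2 CPM) and dendritic cell markers (2.89 to 3.68 against 0.367 to 0.735 CPM) were also higher here without overlap. So was that of macrophage markers without Lyz2 (5690 to 5880 against 3960 to 4170 CPM). The part of these sums in the result was not tested.

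The headings LPS- tlr4f/f and also LPS+ tlr4f/f-lysM-cre are not in doubt, and the comparison of these groups joins both factors in either reading. Again 3 factors rose, against 6.92% of 14584 genes, and 2 fell, against 6.45%. Zc3h12a rose by 3.95 (SE 0.190, adjusted p = 0.000173), Zc3h12c by 3.53 (SE 0.281, adjusted p = 0.000503) and Zfp36 by 1.94 (SE 0.227, adjusted p = 0.00168). Zfp36l1 fell by 2.54 (SE 0.326, adjusted p = 0.00232) and Zfp36l2 by 2.10 (SE 0.295, adjusted p = 0.00301). Rc3h2 differed by 0.78 (adjusted p = 0.000751) and Rc3h1 by 0.17 (adjusted p = 0.592). The count of 5 fell to 2 (Zc3h12a and Zc3h12c) without any 1 of the 3 LPS+ tlr4f/f-lysM-cre libraries, where Zfp36, Zfp36l1 and Zfp36l2 had adjusted p-values of 0.0108 to 0.0219. Of all genes 13.4% were DEGs with all libraries and 3.87% to 4.95% without 1 of these 3. The sum of dendritic cell markers was higher here without overlap (2.89 to 3.68 against 0.203 to 0.769 CPM), and its part in the result was not tested.

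The comparison of LPS+ tlr4f/f with LPS- tlr4f/f gives, as headed, the effect of LPS in tlr4f/f BMDMs, and with the pair exchanged the effect of the genotype without LPS. None of the 7 factors was a DEG by edgeR, against 0% of 14701 genes in each direction. Without replicate 3 of LPS- tlr4f/f edgeR called 184 genes, none of them a factor. At an unadjusted p below 0.05 there were 3624 genes, 1 of them a factor, and DESeq2 called 467 DEGs and limma voom 1, none of them a factor. Rc3h2 was the factor with an unadjusted p below 0.05: it differed by 0.46 (SE 0.0798, adjusted p = 0.0536), with no overlap between the groups. The log2 fold changes of the others lay between -0.47 (Zfp36l1, SE 0.326, adjusted p = 0.413) and 0.12 (Zc3h12c, SE 0.280, adjusted p = 0.818).

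The comparison of LPS+ tlr4f/f-lysM-cre with LPS- tlr4f/f-lysM-cre gives, as headed, the effect of LPS in tlr4f/f-lysM-cre BMDMs, and with the pair exchanged the effect of the genotype with LPS. Zfp36 alone among the factors was a DEG: it fell by 1.81 (SE 0.150, adjusted p = 0.00125), a 3.51-fold change, against 3.65% of 14234 genes that fell. None rose, against 2.42%. Zfp36l2 differed by 1.21 (SE 0.224, adjusted p = 0.0115) and Zfp36l1 by -1.39 (SE 0.367, adjusted p = 0.0335). Zc3h12a, Zc3h12c, Rc3h1 and Rc3h2 lay between -0.37 and 0.30, with adjusted p-values of 0.116 to 0.394. The call of Zfp36 was lost without any 1 of the 3 LPS+ tlr4f/f-lysM-cre libraries (adjusted p of 0.017 to 0.018). Of all genes edgeR called 6.08% with all libraries and 0.027% to 0.101% without 1 of these 3. DESeq2 called Zfp36l1 and Zfp36l2 as well (adjusted p = 0.000853 and 2.53e-05), and 14.1% of all genes. Stroma markers summed to 45 to 56.9 CPM against 182 to 1440 CPM and neutrophil markers to 5.1 to 7.24 against 12.8 to 160 CPM. Dendritic cell markers summed to 2.89 to 3.68 against 4.66 to 13 CPM, and macrophage markers without Lyz2 to 5690 to 5880 against 7780 to 9050 CPM. The part of these sums in the result was not tested.

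**Figure D3:**
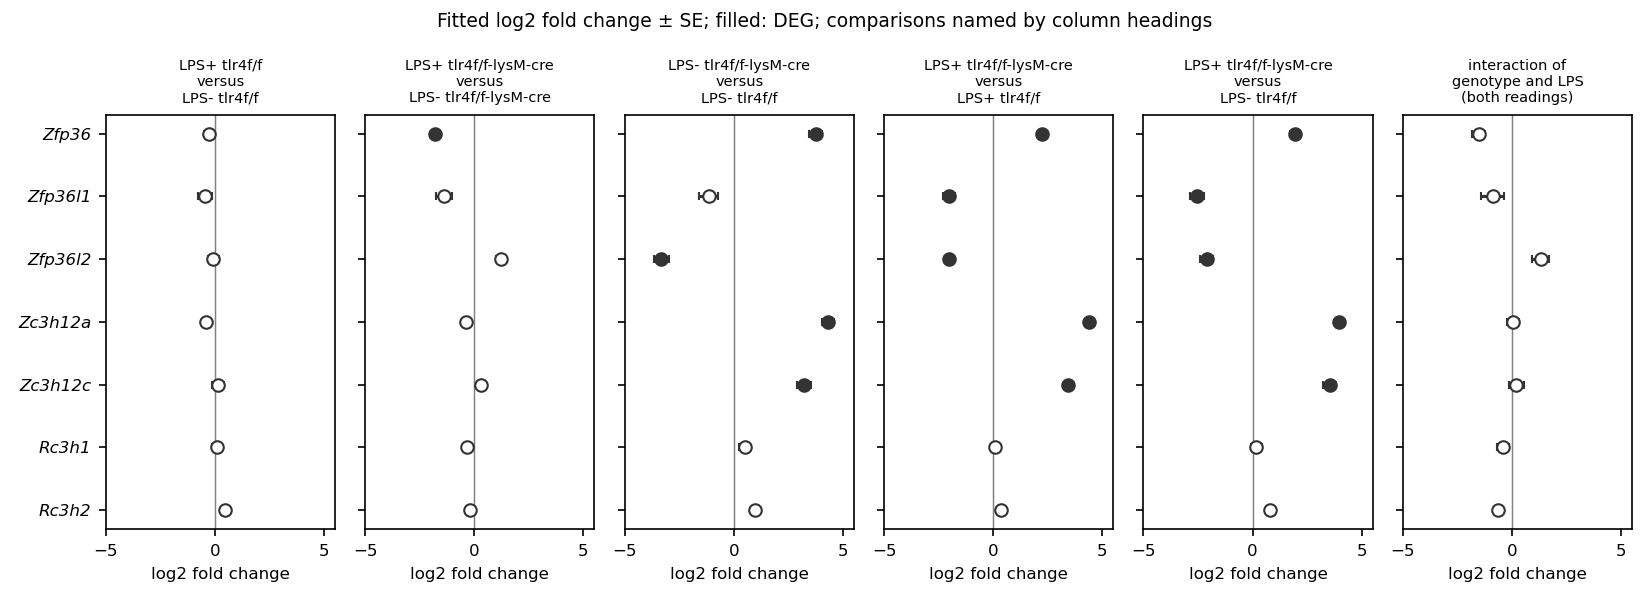
Fitted log2 fold change of each factor (x axis) in the 5 comparisons, named by column headings, and in the interaction; bars are ± SE from 3 libraries per group, and filled points are DEGs. Zc3h12a, Zc3h12c and Zfp36 lie to the right of 0, and Zfp36l2 to the left, in the 3 panels that set a group with lysM-cre against a tlr4f/f group, while the leftmost panel has no filled point.

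The interaction of genotype and LPS, fitted over all 12 libraries, is the same number in both readings. None of the factors was a DEG in it by edgeR, against 0.659% of 15775 genes higher and 0.38% lower. At an unadjusted p below 0.05 there were 3706 genes, 3 of them factors. DESeq2 called 1 factor (Zfp36) and 4.16% of all genes, and limma voom no factor and 0.691% of all genes. Zfp36 had a value of -1.52 (SE 0.295, adjusted p = 0.0141) and Rc3h2 of -0.62 (SE 0.163, adjusted p = 0.0449). They were the 2 factors with an adjusted p below 0.05, both negative, against 2.66% of genes. Zfp36l2 had 1.31 (SE 0.371, adjusted p = 0.0592). Zc3h12a (0.07, SE 0.275, adjusted p = 0.912) and Zc3h12c (0.20, SE 0.338, adjusted p = 0.775) had values close to 0. As headed, Zfp36 differed with LPS by -0.27 on the log2 scale in tlr4f/f and by -1.81 in tlr4f/f-lysM-cre. Zc3h12a differed by -0.42 and -0.37. In the exchanged reading, Zfp36 differed 13.4-fold with LPS in tlr4f/f and 4.70-fold in tlr4f/f-lysM-cre, while Zc3h12a differed 19.9-fold and 21.0-fold.

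The enzymes to which the factors hand their targets were examined as lists. None of 18 deadenylation genes (the CCR4-NOT and PAN subunits, PARN and the TOB and BTG adaptors) was a DEG by edgeR in any of the 6 results. Over all genes, the higher share ran from 0% to 10.8% per result and the lower from 0% to 10.9%. At an unadjusted p below 0.05 there were 5 to 13 of the 18 per result, where from 3624 of 14701 to 9435 of 14540 genes passed. DESeq2 called at most 1 and limma voom none, against 3.18% to 27.3% and 0.0068% to 21.7% of all genes. Their median log2 fold change was 0.15 in LPS- tlr4f/f-lysM-cre against LPS- tlr4f/f, where the median of all genes was -0.08, and -0.05 in LPS+ tlr4f/f-lysM-cre against LPS+ tlr4f/f, where that of all genes was -0.02. Cnot1, the scaffold of CCR4-NOT, was at 167 ± 4.15, 184 ± 7.03, 181 ± 7.69 and 162 ± 5.04 CPM (SD, n = 3) in the groups in the order used above for Tlr4.

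Of 10 genes for decapping and 5′ to 3′ decay, 4 rose in LPS- tlr4f/f-lysM-cre against LPS- tlr4f/f, against 9.25% of all genes, with a list median of 0.66 (all genes, -0.08). They were Pnrc1, a decapping cofactor (1.78, adjusted p = 0.00162), Dcp2, the decapping enzyme (1.75, adjusted p = 0.00064), Xrn1, the 5′ to 3′ exonuclease (1.47, adjusted p = 0.0013), and Dcp1a, the DCP2 activator (1.11, adjusted p = 0.00571). Dcp2 was the only one of them called in LPS+ tlr4f/f-lysM-cre against LPS+ tlr4f/f (1.21, adjusted p = 4.34e-09; 10.8% of all genes rose there). Xrn1 (0.98, adjusted p = 3.96e-08) and Pnrc1 (0.90, adjusted p = 1.29e-07) were just under the fold limit there, and their interaction values were -0.49 (adjusted p = 0.108) and -0.88 (adjusted p = 0.0364). The level of Dcp2 was 75.0 ± 4.82 CPM in LPS- tlr4f/f, 248 ± 9.17 in LPS- tlr4f/f-lysM-cre, 79.3 ± 4.52 in LPS+ tlr4f/f and 182 ± 8.89 in LPS+ tlr4f/f-lysM-cre. Against LPS- tlr4f/f, LPS+ tlr4f/f-lysM-cre had 3 DEGs of this list: Dcp2 (1.28, adjusted p = 0.000332) and Xrn1 (1.17, adjusted p = 0.000891) rose, against 6.92% of all genes, and Dcp1b, a paralog of Dcp1a, fell (-1.03, adjusted p = 0.00523), against 6.45%. The other 3 results had no DEG in this list (all genes, at most 2.42% higher and 3.65% lower). At an unadjusted p below 0.05 there were 2 to 5 of the 10, where from 3624 of 14701 to 5741 of 14234 genes passed. Of 13 genes of the exosome and its cofactors, which degrade RNA from the 3′ end, Exosc7 was the only DEG in any result. It fell in LPS- tlr4f/f-lysM-cre against LPS- tlr4f/f (-1.59, adjusted p = 0.00225), against 7.81% of all genes. The list's median there was -0.28. In the other 5 results 5 to 7 of these genes had an unadjusted p below 0.05, where from 3624 of 14701 to 9435 of 14540 genes passed. DESeq2 and limma voom each called at most 1 there, against 3.18% to 22% and 0.0068% to 21.7% of all genes.

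Of 8 other proteins that bind AU-rich elements or the same targets, Arid5a was the only DEG. Its protein is known to protect Il6 mRNA from Regnase-1. Arid5a rose in LPS+ tlr4f/f-lysM-cre against LPS+ tlr4f/f (2.33, SE 0.157, adjusted p = 1.01e-06), from 5.63 ± 1.23 to 28.03 ± 2.68 CPM. Of all genes 10.8% rose there, and the list's median was -0.05. In LPS- tlr4f/f-lysM-cre against LPS- tlr4f/f its value was larger, 3.82 (SE 0.901), but missed the limit (adjusted p = 0.0185), at 68.06 ± 42.1 against 4.90 ± 5.07 CPM. In the other 5 results 2 to 6 of the 8 had an unadjusted p below 0.05, where from 3624 of 14701 to 7301 of 14584 genes passed. DESeq2 and limma voom each called at most 1 there, against 3.18% to 27.3% and 0.0068% to 16.2% of all genes. Among 5 relatives of the factors, N4bp1, an RNase of the Regnase type that MALT1 cleaves, rose in LPS- tlr4f/f-lysM-cre against LPS- tlr4f/f (2.90, adjusted p = 0.000646) and in LPS+ tlr4f/f-lysM-cre against LPS+ tlr4f/f (2.34, adjusted p = 6.21e-12) and against LPS- tlr4f/f (1.86, adjusted p = 0.00107). Like Zfp36, it fell in LPS+ tlr4f/f-lysM-cre against LPS- tlr4f/f-lysM-cre (-1.04, adjusted p = 0.00209), against 3.65% of all genes. Zc3hav1, the zinc-finger antiviral protein, rose in the same 3 comparisons as N4bp1, by 1.46 (adjusted p = 0.00121), 1.18 (adjusted p = 1.84e-09) and 1.19 (adjusted p = 0.000608). Over all genes 9.25%, 10.8% and 6.92% rose in these comparisons, in that order. Zc3h12d (Regnase-4) fell in LPS+ tlr4f/f-lysM-cre against LPS- tlr4f/f (-1.46, adjusted p = 0.00712), against 6.45% of all genes.

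Of 12 regulators and partners of these proteins, which include kinases, phosphatase subunits, a protease, a ubiquitin ligase subunit and the helicase UPF1, 3 rose in LPS- tlr4f/f-lysM-cre against LPS- tlr4f/f (all genes, 9.25%), with a list median of 0.66. Malt1, the protease that cleaves Regnase-1 and Roquins, rose by 4.05 (SE 0.432, adjusted p = 0.00128). Mapkapk2, the MK2 kinase that phosphorylates TTP, rose by 2.84 (SE 0.340, adjusted p = 0.00182). Ikbkb, the IKK subunit whose kinase marks Regnase-1 for degradation, rose by 1.54 (SE 0.262, adjusted p = 0.00571). Mapkapk2 (2.57, adjusted p = 6.54e-12) and Malt1 (2.11, adjusted p = 3.76e-11) were the 2 that rose in LPS+ tlr4f/f-lysM-cre against LPS+ tlr4f/f (all genes, 10.8%), with a list median of 0.56. Malt1 (3.82, adjusted p = 0.00108), Mapkapk2 (2.38, adjusted p = 0.000173) and Ppp2cb, a catalytic subunit of the phosphatase PP2A (1.08, adjusted p = 0.00104), rose in LPS+ tlr4f/f-lysM-cre against LPS- tlr4f/f (all genes, 6.92%).

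Mapk14, which encodes the p38 kinase upstream of MK2, was by edgeR the only gene of these lists that was a DEG in the interaction (1.61, SE 0.187, adjusted p = 0.00236). Of all genes 0.659% were DEGs in this direction. DESeq2 called 2 of the 12 regulators there, 1 factor, 1 exosome gene and 1 TTP target, and 4.16% of all genes. The level of Mapk14 was 167 ± 24.7 CPM in LPS- tlr4f/f, 98.2 ± 13.3 in LPS- tlr4f/f-lysM-cre, 150 ± 4.89 in LPS+ tlr4f/f and 271 ± 4.91 in LPS+ tlr4f/f-lysM-cre. It rose in LPS+ tlr4f/f-lysM-cre against LPS- tlr4f/f-lysM-cre (1.44, SE 0.135, adjusted p = 0.00159), the comparison in which Zfp36 fell. Of all genes 2.42% rose there.

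Many of the mRNAs that the factors are known to destroy rose in the comparisons in which Zfp36, Zc3h12a and Zc3h12c rose. Of 15 TTP targets 10 rose in LPS- tlr4f/f-lysM-cre against LPS- tlr4f/f, 14 in LPS+ tlr4f/f-lysM-cre against LPS+ tlr4f/f and 7 in LPS+ tlr4f/f-lysM-cre against LPS- tlr4f/f, where 9.25%, 10.8% and 6.92% of all genes rose, and none fell. Their median log2 fold changes were 7.75, 4.98 and 5.04 (all genes, -0.08, -0.02 and -0.05), or 6.46, 3.66 and 4.22 with genes at or under 3 counts in all libraries of a group set at their bound. Il6 had the highest fold change in the first and second of these (10.6, adjusted p = 0.00357, and 9.87, adjusted p = 8.12e-06), and Il1b in the third (9.45, adjusted p = 0.00437). Il23a, at or under 3 counts in every LPS- tlr4f/f library, was higher by at least 5.09 on the log2 scale in LPS- tlr4f/f-lysM-cre. In LPS+ tlr4f/f-lysM-cre against LPS- tlr4f/f-lysM-cre, 2 targets fell: Il10 (-4.34, SE 0.382, adjusted p = 0.00135), an anti-inflammatory cytokine gene, and Dusp1 (-2.60, SE 0.333, adjusted p = 0.00378), which encodes a phosphatase that turns p38 off. The median of the list was -1.69 there, where 3.65% of all genes fell. DESeq2 called 8 targets in this comparison and 14.1% of all genes.

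Il10 was at 121 ± 51.2 CPM in LPS- tlr4f/f-lysM-cre and 6.09 ± 1.08 in LPS+ tlr4f/f-lysM-cre, against 2.11 ± 1.42 in LPS- tlr4f/f and 0.737 ± 0.0663 in LPS+ tlr4f/f (SD, n = 3). Dusp1 was at 609 ± 255 and 102 ± 11.9 CPM in the former groups and at 64.7 ± 47.8 and 43.4 ± 3.13 in the latter. Tnf, the best known TTP target, was at 34.0 ± 18.1 CPM in LPS- tlr4f/f, 2684 ± 1970 in LPS- tlr4f/f-lysM-cre, 30.9 ± 3.07 in LPS+ tlr4f/f and 1116 ± 179 in LPS+ tlr4f/f-lysM-cre.

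Of 9 Regnase-1 and Roquin targets, 7 were expressed enough to test in each of the 4 comparisons that follow, and these include Il6 and Tnf of the TTP list. Of these 4 of 7 rose in LPS- tlr4f/f-lysM-cre against LPS- tlr4f/f, with Il12b highest (10.9, adjusted p = 0.00194). In the same way 5 of 7 rose in LPS+ tlr4f/f-lysM-cre against LPS+ tlr4f/f, again with Il12b highest (10.5, adjusted p = 0.000243). Over all genes 9.25% and 10.8% rose. The list's medians were 6.32 and 5.65. LPS+ tlr4f/f-lysM-cre set against LPS- tlr4f/f had 5 of 7 that rose (all genes, 6.92%), with Il6 highest (8.67, adjusted p = 0.00244). Tnfrsf4, which encodes the T cell co-stimulator OX40, was not a DEG in any of these 3 comparisons (-0.02, -0.63 and -0.85, adjusted p = 0.976, 0.395 and 0.18). Lcn2, which encodes lipocalin-2 (-3.42, SE 0.285, adjusted p = 0.00126), and Nfkbiz, which encodes the co-activator of NF-kB targets IκBζ (-1.14, SE 0.146, adjusted p = 0.00381), fell in LPS+ tlr4f/f-lysM-cre against LPS- tlr4f/f-lysM-cre. Of all genes 3.65% fell there. In LPS+ tlr4f/f against LPS- tlr4f/f no gene of any of these lists was a DEG by edgeR, against 0% of all genes. At an unadjusted p below 0.05 there were 0 (TTP targets) to 5 genes of a list and 3624 of 14701 genes. For these lists limma voom called none, against 0.0068% of all genes. DESeq2 called 1 upstream regulator and 1 Regnase-1 and Roquin target, against 3.18% of all genes.

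**Figure D4:**
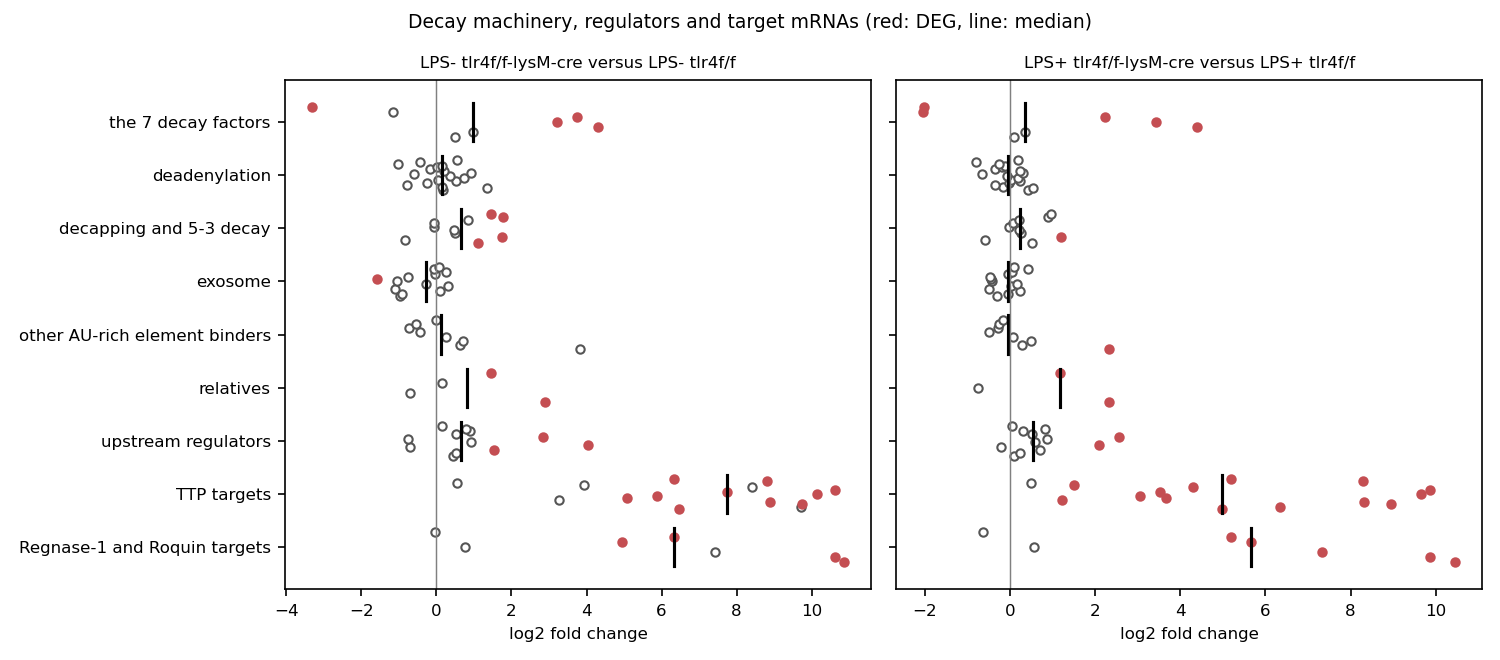
Fitted log2 fold change (x axis) of every tested gene of the factor, decay machinery, regulator and target lists in LPS- tlr4f/f-lysM-cre against LPS- tlr4f/f (left) and LPS+ tlr4f/f-lysM-cre against LPS+ tlr4f/f (right); red points are DEGs, black lines medians, and genes at 0 in a group are at their fitted value. The 18 deadenylation genes have no red point, while 10 and 14 of 15 TTP targets do.

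The genes most like each factor across the 12 libraries were taken by Pearson's r of log2 CPM over 15775 genes. Among those of Zfp36 were H2-T22 (0.996) and Spi1 (0.994). Zfp36l2 was most like Rps6ka5 (0.996), Srbd1 (0.987) and Cnr2 (0.986). Zc3h12a was most like Shisa3, Mocs1 and Il12a (0.998 each), and Zc3h12c like Sla (0.995), Slc7a11 (0.993) and Ino80 (0.993). Rc3h2 was most like Seh1l (0.991), Rlim (0.984) and Fbxo30 (0.984), Zfp36l1 like Gm26669 (0.985), Ppp1cc (0.951) and Slc26a11 (0.950), and Rc3h1 like Snap23 (0.948), Snrpb2 (0.917) and Suv420h1 (0.907). With 4 groups of 3 libraries, each r mainly describes the order of the group levels.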

How the data were processed

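The labels name both rRNA removal and polyA RNA-seq for every library, and which was used is not settled by the sources used here. Per the labels and the study's methods, adapters and low-quality reads were removed (Trimmomatic 0.36), and reads were aligned to mm10 with HISAT2 and counted with HTSeq. The authors deposited whole-number read counts for 115140 transcripts, without normalization. Transcripts of a gene share reads, so the transcript with the highest total was used for each gene. Depth was 33577087 to 56445268 counts per library, and at least 263 for a factor. The kit does not mark strand, so antisense reads could not be told apart.

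The main test was the robust quasi-likelihood fit of edgeR 4.0.16 under R 4.3.3, after filterByExpr and TMM, with Benjamini-Hochberg adjustment. Each comparison used its 6 libraries, and the interaction all 12. Correlations used log2 CPM with a prior count of 2. Alternatives were DESeq2 1.42.0, limma 3.58.1 voom, RLE factors, other filters, a single fit of all libraries, a replicate block, an adjusted p below 0.05, the sum over transcripts and each library left out.

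The 7 factors and the gene lists, from general knowledge, were chosen with earlier results of these data known. The DEG that rose most and the one that fell most were named for every list and comparison. Cnot1, Tnf, Il23a, Tnfrsf4 and DEGs of lists with 5 or fewer were named after their values were seen. One of the genes most like a factor is not reported here.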

Additional observations from a re-analysis of the deposited data

Results flagged for a closer look

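The effect under the same contrast differed between groups for 2 of the factors, by the test of the interaction itself in edgeR's quasi-likelihood fit over 12 libraries. Zfp36 had an interaction of -1.52 (SE 0.295, adjusted p = 0.0141; 0.00829 to 0.0501 with a library left out): its level in LPS+ tlr4f/f-lysM-cre was below what the other 3 groups add up to. Rc3h2 had an interaction of -0.62 (SE 0.163, adjusted p = 0.0449; 0.0184 to 0.12 with a library left out). Both signs hold in either reading of the headings. Neither value passed the limit of 0.01 used for DEGs.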

How the results depend on the processing

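Of 665 refits of the 42 log2 fold changes of the factors (7 factors in 6 results), 621 kept their direction and side of the DEG limits, 14 lost the call, 21 gained it and 9 changed sign. In what follows, the share of all genes that were DEGs under the same setting is in brackets. In LPS+ tlr4f/f-lysM-cre against LPS- tlr4f/f-lysM-cre, 1 factor was a DEG (6.08%). With DESeq2 3 were (14.1%), with limma voom 2 (6.3%) and with no filter beyond 1 count 2 (4.15%). With all 12 libraries in a single fit 2 were (7.29%), and 3 at an adjusted p below 0.05 without a fold minimum (26.7%). With a library left out 0 to 2 were (0.027% to 8.08%). In the interaction none was a DEG (1.04%), and 1 was with DESeq2 (4.16%) and 1 with at least 10 counts in every library (1.82%). At an adjusted p below 0.05 there were 2 (6.99%). With a library left out there were 0 to 1 (0.061% to 1.88%), and 1 without replicate 3 of LPS- tlr4f/f or of LPS- tlr4f/f-lysM-cre. With a library left out, 2 to 5 factors were DEGs in LPS+ tlr4f/f-lysM-cre against LPS- tlr4f/f (3.87% to 15.3%). There were 4 to 5 in LPS+ tlr4f/f-lysM-cre against LPS+ tlr4f/f (19.9% to 21.3%). There were 4 in LPS- tlr4f/f-lysM-cre against LPS- tlr4f/f (6.77% to 11.1%) and 0 in LPS+ tlr4f/f against LPS- tlr4f/f (0% to 1.21%). With 2 libraries in a group, the cause of lost calls was not tested. The values that changed sign were all small. With a library left out, those of LPS+ tlr4f/f against LPS- tlr4f/f ran from -0.28 to 0.27 for Zfp36l2, from -0.095 to 0.46 for Zc3h12c and from -0.089 to 0.40 for Rc3h1, that of Rc3h1 in LPS+ tlr4f/f-lysM-cre against LPS- tlr4f/f from -0.029 to 0.47, and those of the interaction from -0.12 to 0.24 for Zc3h12a and from -0.12 to 0.42 for Zc3h12c. The sign turned without replicate 1 (Rc3h1, and both genes in the interaction) or 3 (Zfp36l2 and Zc3h12c) of LPS- tlr4f/f or without replicate 3 of LPS- tlr4f/f-lysM-cre (Zc3h12a). In the interaction Zc3h12a was also at -0.022 with DESeq2 or RLE factors.

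Samples with the same replicate number correlated between -0.0379 and 0.472 in their deviations from the group means, over 0.1 in 5 of 18 pairs. Those with different numbers correlated between -0.491 and 0.203. The highest values were those of LPS- tlr4f/f with LPS- tlr4f/f-lysM-cre, 0.472 for replicate 1 and 0.34 for replicate 2. Whether these groups share replicates was not tested. In the main test the numbers were not taken as pairs. With the replicate block, 0, 1, 4, 5, 4 and 0 factors were DEGs in the order LPS+ tlr4f/f against LPS- tlr4f/f, LPS+ tlr4f/f-lysM-cre against LPS- tlr4f/f-lysM-cre, LPS- tlr4f/f-lysM-cre against LPS- tlr4f/f, LPS+ tlr4f/f-lysM-cre against LPS+ tlr4f/f, LPS+ tlr4f/f-lysM-cre against LPS- tlr4f/f, and the interaction. In that order 0%, 1.49%, 15%, 22.3%, 6.32% and 0.818% of all genes were DEGs with the block. Zfp36l1 in the fifth (adjusted p = 0.016) was the only factor whose call changed. Summed over transcripts, reads are counted several times and CPM levels were lower (Zfp36 at 28.7 in place of 97.8 CPM in LPS- tlr4f/f), while no factor's call changed. Over all genes, DESeq2 called 467 DEGs in LPS+ tlr4f/f against LPS- tlr4f/f, where edgeR called 0, but 184 without replicate 3 of LPS- tlr4f/f and 74 with all libraries in a single fit. The 2497 of LPS- tlr4f/f-lysM-cre against LPS- tlr4f/f became 3992 with DESeq2 and 1038 without replicate 2 of LPS- tlr4f/f, the 1950 of LPS+ tlr4f/f-lysM-cre against LPS- tlr4f/f became 2965 with DESeq2, 922 with the replicate block and 592 without replicate 2 of LPS+ tlr4f/f-lysM-cre, and the 3161 of LPS+ tlr4f/f-lysM-cre against LPS+ tlr4f/f became 2045 in a single fit. The 865 DEGs of LPS+ tlr4f/f-lysM-cre against LPS- tlr4f/f-lysM-cre became 2002 with DESeq2, 212 with the replicate block and as few as 4 with a library left out (replicate 1 of LPS+ tlr4f/f-lysM-cre), and the 164 of the interaction became 657 with DESeq2 and as few as 10 with a library left out (replicate 2 of LPS+ tlr4f/f).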
